A study of Mus musculus with 2 samples.

Results

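The receptor complex for bacterial lipopolysaccharide and the proteins that carry its signal were examined as 9 genes: Cd14, Tlr4, Ly96, Tirap, Myd88, Ticam2, Ticam1, Irak4 and Irak3. They were chosen by name, with earlier results of these data known, and each had 1 row among the 31053 genes listed in the files. The cells were bone marrow cells of 129Sv mice cultured with serum and macrophage colony-stimulating factor (M-CSF), which drives marrow cells towards macrophages. On day 7 of culture they received 1 µg/ml of a truncated Tamm-Horsfall protein that does not polymerize (THP, also called uromodulin, a kidney protein), or its vehicle, 5% dextrose, and both cultures were held for 18 h. The cells of both groups were detached, depleted of dead cells and made into droplet libraries, in which a barcode marks the cell of each captured RNA and a unique molecular identifier (UMI) marks the molecule. The labels give neither the age of the mice nor the number behind a culture.

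Lipopolysaccharide is handed by a serum protein to CD14, which passes it to MD-2 (the product of Ly96) on the outer side of Toll-like receptor 4 (TLR4). At the cell surface the occupied receptor recruits TIRAP and, through it, MyD88, which gathers the kinase IRAK4 and its partners and leads to NF-kB, the transcription factor behind many inflammatory genes. After CD14-dependent uptake into endosomes the receptor recruits TRAM (Ticam2) and, through it, TRIF (Ticam1), which leads to interferon genes and a late wave of NF-kB. IRAK-M, the product of Irak3, is a family member that restrains the MyD88 arm in macrophages.

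There was 1 library per group, so no difference below has a replicate check, no p-value was computed, and the treatment and the culture or library it came with cannot be told apart. The libraries held 224825484 UMIs in 12123 kept THP cells and 207662132 UMIs in 10978 kept vehicle cells, with medians of 16113 and 17223 UMIs per cell. They shared 42 cell barcodes. Levels are UMIs summed over cells and given as counts per 1000000 UMIs (CPM). Intervals are exact Poisson or exact binomial 95% intervals and cover counting error only. For shares after thinning, the binomial form was applied to an expected number of cells that need not be whole, so those intervals are approximate. A ratio is the log2 ratio of CPM + 1, THP over vehicle, and a gene counted as higher or lower when it reached 10 CPM in at least 1 library and differed at least 2-fold on that scale. The median ratio of the 8012 genes at 10 CPM or more was -0.18, with the central 95% from -1.04 to 0.56, and it moved to 0.11 when trimmed means (TMM) set the library sizes and to 0.10 with relative log expression (RLE). Genes marking macrophages were detected in both libraries, for example Adgre1 (F4/80) in 69.7% of THP and 62.0% of vehicle cells and C1qb in 40.0% and 29.8%, but many cells carried markers of other marrow cells, and the gates below separate them.

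Over all kept cells, Cd14 was the 1 member that was 2-fold higher with THP, and Tlr4 the 1 member that was 2-fold lower. Of all 8012 genes tested, 0.911% were higher and 2.97% lower by this rule. At 1.5-fold, Irak3 joined the higher members and Irak4 the lower ones, 2 in each direction, where 2.33% of all genes were higher and 17.3% lower. Of the 9 members, 7 reached 10 CPM, 5 had a ratio above 0 and 4 below it, and their median ratio was 0.46. That median was 0.11 after the adjustment for transcript length described with Cd14, 0.33 with equal weight per cell and 0.71 with TMM. The direction divided the complex itself: the 2 ligand-binding partners, Cd14 and Ly96, had ratios above 0 while the signalling receptor Tlr4 had a ratio below it. It also divided the adaptors and kinases, with Myd88, Ticam1 and Irak3 above 0 and Tirap, Ticam2 and Irak4 below. The median of all genes at 10 CPM or more was itself below 0, at -0.18. Ticam2, at -0.23, was close to it, as was Tirap after the adjustment for length, at -0.21.

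**Figure D1:**
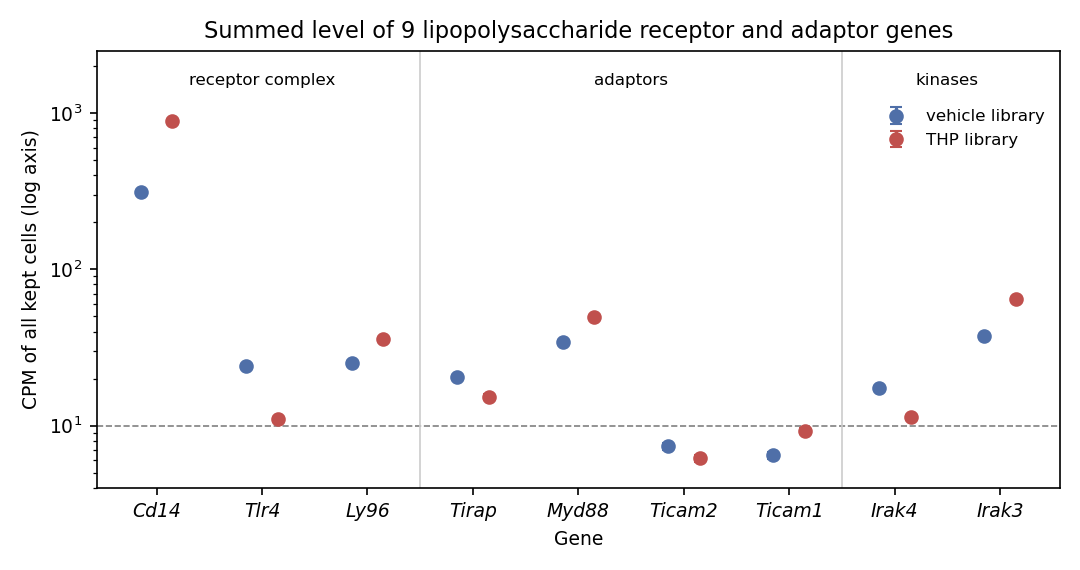
Summed level of each of the 9 genes in the vehicle library and the THP library, in CPM on a log axis; error bars are exact Poisson 95% intervals, mostly narrower than the points, and the dashed line marks 10 CPM. Cd14 stood at 893 CPM with THP against 310 CPM with vehicle, and Tlr4 at 10.99 CPM against 24.1 CPM.

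Regulatory sequence is shown for 3 members that differed in direction: Myd88 and Irak3, whose ratios over all cells were above 0, and Irak4, whose ratio was below it. The stretches are the 250 bases before a transcript start in RefSeq (GRCm38.p6), 5′ to 3′ on the gene's strand, with capitals marking matches to the motifs searched. For Irak3, with a pair of starts in the table, the one furthest upstream was taken. They lie at chr9:119340019-119340268 (minus strand) for Myd88, chr10:120202131-120202380 (minus strand) for Irak3 and chr15:94543410-94543659 (plus strand) for Irak4.
Myd88: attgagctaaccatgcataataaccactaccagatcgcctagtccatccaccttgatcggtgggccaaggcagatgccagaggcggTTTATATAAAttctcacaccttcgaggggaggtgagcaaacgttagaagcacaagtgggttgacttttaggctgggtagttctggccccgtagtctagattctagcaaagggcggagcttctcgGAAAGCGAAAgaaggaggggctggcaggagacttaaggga
Irak3: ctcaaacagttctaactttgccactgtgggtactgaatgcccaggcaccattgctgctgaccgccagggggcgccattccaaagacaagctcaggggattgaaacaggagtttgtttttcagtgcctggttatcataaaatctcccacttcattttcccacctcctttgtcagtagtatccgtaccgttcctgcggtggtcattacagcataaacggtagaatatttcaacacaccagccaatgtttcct
Irak4: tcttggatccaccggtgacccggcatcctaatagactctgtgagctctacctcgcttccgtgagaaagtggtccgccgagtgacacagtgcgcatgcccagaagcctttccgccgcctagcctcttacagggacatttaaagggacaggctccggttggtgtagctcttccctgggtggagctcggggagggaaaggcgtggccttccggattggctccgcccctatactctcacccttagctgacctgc

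The search covered both strands of windows from 250 bases before to 50 bases after a start, for 5 motifs: TATAAA, the NF-kB motif, the PU.1 motif GAGGAAGT, the AP-1 motif TGANTCA and the interferon-stimulated response element (ISRE, GAAANNGAAA). Myd88 held TATAAA on both strands in overlapping positions, bases 87 to 92 and 91 to 96 of the window and so well upstream of the start, and an ISRE match, GAAAGCGAAA, at bases 211 to 220. None of these letters occurred in the 6 windows of Ticam1, Tirap, Irak3 and Irak4, where no match says only that the letters are not in these stretches. Among 32851 mouse promoter windows of the same length, 13.6% held TATAAA, 3.44% ISRE, 4.51% the NF-kB motif, 7.81% AP-1 and 3.20% the PU.1 motif. No binding or promoter activity was measured in these libraries.

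Cd14 (ENSMUSG00000051439), the co-receptor that delivers lipopolysaccharide to TLR4 and MD-2, had 893 CPM (889 to 897) with THP against 310 CPM (308 to 313) with vehicle. The ratio was 1.52, a 2.88-fold higher CPM with THP. The share of cells with a UMI of Cd14 was 85.8% (85.1 to 86.4) with THP and 71.1% (70.2 to 71.9) with vehicle. When each cell was thinned to 5000 UMIs, which left out 1958 THP and 1966 vehicle cells that were shallower, the expected shares over all draws were 78.9% and 53.0%. The difference was therefore present at equal depth among the cells that remained. Of the mature neutrophil gate described below, only 67 of 746 THP and 53 of 922 vehicle cells remained. Short transcripts had higher ratios than long ones across all genes, and allowing for this drift left Cd14 at 1.27.

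Tlr4 (ENSMUSG00000039005, chromosome 4, 66827584 to 66930284, plus strand), the signalling receptor, went the other way. Its level was 10.99 CPM (10.6 to 11.4) with THP and 24.1 CPM (23.4 to 24.8) with vehicle, a ratio of -1.07 and a 2.19-fold higher CPM with vehicle. It was found in 16.9% (16.2 to 17.6) of cells with THP and 29.9% (29.0 to 30.8) with vehicle, and in 5.16% and 10.6% after thinning. Tlr4 has long transcripts, and the length-adjusted ratio was -1.01. With TMM the ratio was -0.80 and with every cell weighted equally it was -0.97, so that Tlr4 kept its sign but missed the 2-fold limit under these settings.

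Ly96 (ENSMUSG00000025779, chromosome 1, 16688051 to 16709611, plus strand) encodes MD-2, the small protein that holds the lipid part of lipopolysaccharide against TLR4. It was at 35.7 CPM (34.9 to 36.5) with THP and 25.2 CPM (24.5 to 25.9) with vehicle, a ratio of 0.49 that stayed under 2-fold. Cells with a UMI made up 38.0% and 30.4%, or 14.7% and 10.5% after thinning. Ly96 is the member with the shortest transcript, 666 bases, and its length-adjusted ratio was 0.11.

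The balance of UMIs within the complex differed between the libraries. For each UMI of Tlr4 there were 3.25 UMIs of Ly96 with THP and 1.04 with vehicle, and 81.3 and 12.9 UMIs of Cd14. These ratios are not corrected for transcript length and serve to compare libraries only. In single cells thinned to 5000 UMIs, Tlr4 and Ly96 were found together in 0.897% (0.723 to 1.10) of cells with THP and 1.51% (1.27 to 1.78) with vehicle. All 3 genes were found together in 0.826% (0.660 to 1.02) and 1.00% (0.806 to 1.23), intervals that overlap. At this depth most cells carry no UMI of Tlr4, so these shares count cells in which the transcripts were captured and not cells that express them.

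Tirap (ENSMUSG00000032041, chromosome 9, 35184551 to 35200291, minus strand) bridges TLR4 and MyD88 at the plasma membrane. Its level was 15.3 CPM (14.8 to 15.9) with THP and 20.4 CPM (19.8 to 21.1) with vehicle, a ratio of -0.39 that was -0.21 after the adjustment for length and -0.12 with TMM. Myd88 itself (ENSMUSG00000032508, chromosome 9, 119335934 to 119341411, minus strand) had 49.3 CPM (48.4 to 50.2) and 34.2 CPM (33.5 to 35.1), a ratio of 0.51. The adaptor that bridges and the adaptor it bridges to thus had opposite signs, but 0 is not the middle of all genes. The median ratio of all genes at 10 CPM or more was -0.18, close to the length-adjusted ratio of Tirap. There were 3.21 UMIs of Myd88 for each of Tirap with THP and 1.68 with vehicle. Myd88 was found in 50.6% of THP and 41.1% of vehicle cells, and Tirap in 23.1% and 29.5%. After thinning, the shares were 21.5% and 15.3% for Myd88 and 7.58% and 10.04% for Tirap.

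The adaptors of the endosomal arm were the least captured members and stayed under 10 CPM in both libraries. Ticam1 (ENSMUSG00000047123, chromosome 17, 56269319 to 56276786, minus strand), encoding TRIF, was at 9.23 CPM (8.84 to 9.64) with THP and 6.46 CPM (6.12 to 6.82) with vehicle, a ratio of 0.46. Ticam2 (ENSMUSG00000056130), encoding TRAM, was at 6.16 CPM (5.84 to 6.498) and 7.39 CPM (7.02 to 7.77), a ratio of -0.23 that turned to 0.02 with TMM and RLE. Ticam1 was found in 14.7% and 11.1% of cells, or 4.53% and 3.24% after thinning, and Ticam2 in 10.01% and 12.3%, or 3.19% and 3.798%. Only the sign of Ticam2, among the 9 members, depended on the scaling of the whole libraries.

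Irak4 (ENSMUSG00000059883, chromosome 15, 94543643 to 94581815, plus strand), the kinase that starts signalling from MyD88, was at 11.3 CPM (10.9 to 11.7) with THP and 17.5 CPM (16.9 to 18.0) with vehicle, a ratio of -0.59. Irak3 (ENSMUSG00000020227, chromosome 10, 120141648 to 120202130, minus strand), encoding the inhibitory IRAK-M, was at 64.6 CPM (63.5 to 65.6) and 37.2 CPM (36.4 to 38.0), a ratio of 0.78 and a 1.74-fold higher CPM with THP. Under TMM and RLE the ratio of Irak3 was 1.06 and 1.05, past 2-fold. Cells with a UMI were 55.2% and 43.6% for Irak3, or 25.9% and 17.2% after thinning, and 17.7% and 26.0% for Irak4, or 5.61% and 8.74%. The inhibitor had 5.72 UMIs for each UMI of Irak4 with THP and 2.13 with vehicle.

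The members were then followed in cells sorted computationally by marker genes. Each cell was given to the marker list with the highest mean log expression if that mean reached 0.5, which set up 8 gates with at least 50 cells in each library: macrophage-like (3585 THP and 2152 vehicle cells), monocyte-like (1336 and 1672), mature neutrophil-like (746 and 922), immature neutrophil-like (1531 and 1807), myeloid progenitor-like (1547 and 1847), high in MHC class II (1294 and 1337), osteoclast-like macrophages (660 and 586) and stromal (81 and 72). Below, they are called by the list alone. Another 1188 THP and 495 vehicle cells passed no list. A gate is a range of scores and not a pure cell type: in the immature neutrophil and progenitor gates, 97.8% and 97.2% of THP cells also passed the limit of another list, and the median monocyte score was 1.29 and 1.41 against own scores of 3.06 and 3.26. Some marker genes differed in level themselves, such as Adgre1 at 353 CPM with THP and 235 CPM with vehicle, so gate sizes are not compared between libraries.

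**Figure D2:**
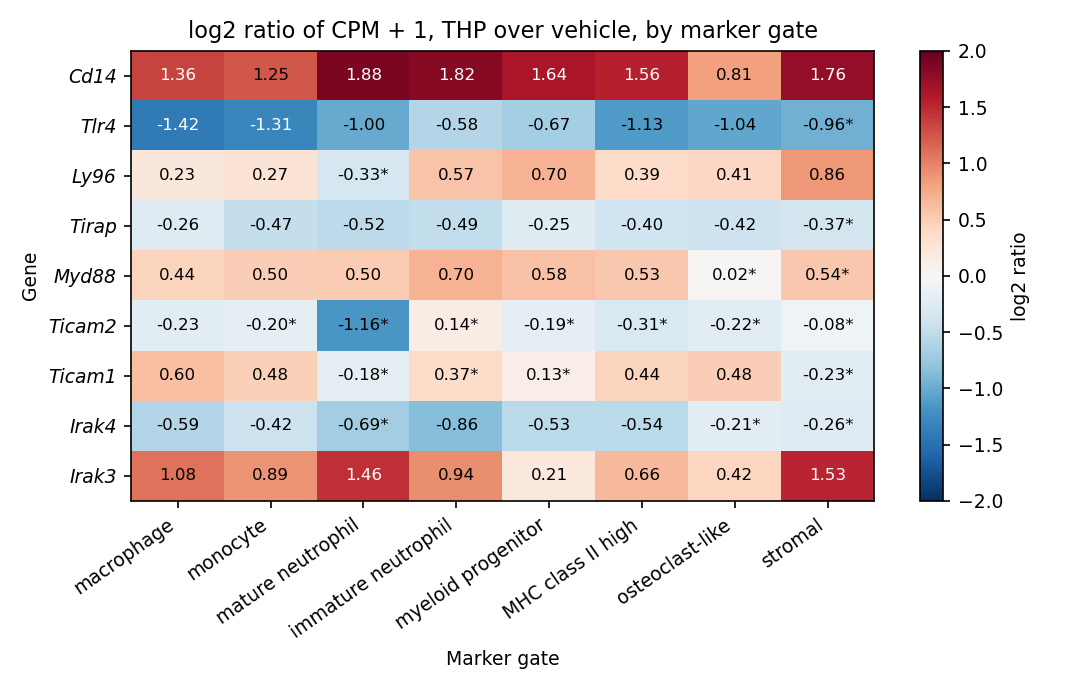
log2 ratio of CPM + 1, THP over vehicle, for the 9 genes (rows) in the 8 marker gates (columns); red is higher with THP, blue lower, and an asterisk marks overlapping Poisson intervals. Cd14, Myd88 and Irak3 had ratios above 0 in each column and Tlr4, Tirap and Irak4 below 0 in each.

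Across these gates the direction of most members held. Cd14, Myd88 and Irak3 had ratios above 0 in all 8 gates, and Tlr4, Tirap and Irak4 below 0 in all 8. Among all 8012 genes, 14.4% were above 0 and 34.8% below 0 in every gate. The 3 of 9 members below 0 in every gate were thus no larger a share than among all genes. With TMM, Tirap and Irak4 were below 0 in 6 of 8 gates, and Cd14, Myd88, Irak3 and Tlr4 kept their sign in all. Ly96 was above 0 in 7 gates and Ticam1 in 6, or in all 8 with TMM. Ticam2 was below 0 in 7 gates but in only 2 with TMM. Gates with intervals apart are also counted below. The share of all genes with intervals apart by gate was not computed, so those counts have no background to compare with.

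Cd14 was higher with THP in each of the 8 gates with intervals apart, as it also was in the lymphoid cells taken as background below. Of the 8 gates, it was 2-fold or more higher in 7. The exception was the osteoclast-like gate, at 692 CPM (680 to 705) against 393 CPM (384 to 402), a ratio of 0.81, or 1.10 with TMM. Of all genes, 0.349% were 2-fold higher in every gate, and Cd14 was not among them for this reason. The highest ratio of the 8 gates, 1.88, was in the mature neutrophil gate, where Cd14 stood at 2478 CPM (2417 to 2540) with THP and 673 CPM (642 to 706) with vehicle. Cd14 is best known as a monocyte and macrophage marker. In both libraries its highest level by CPM was in the mature neutrophil gate, whose cells hold few UMIs, and this is not an order by UMIs per cell. That gate held 6249 UMIs of Cd14 in 746 THP cells and 1724 in 922 vehicle cells. The macrophage gate held 99865 in 3585 THP cells and 23756 in 2152 vehicle cells.

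**Figure D3:**
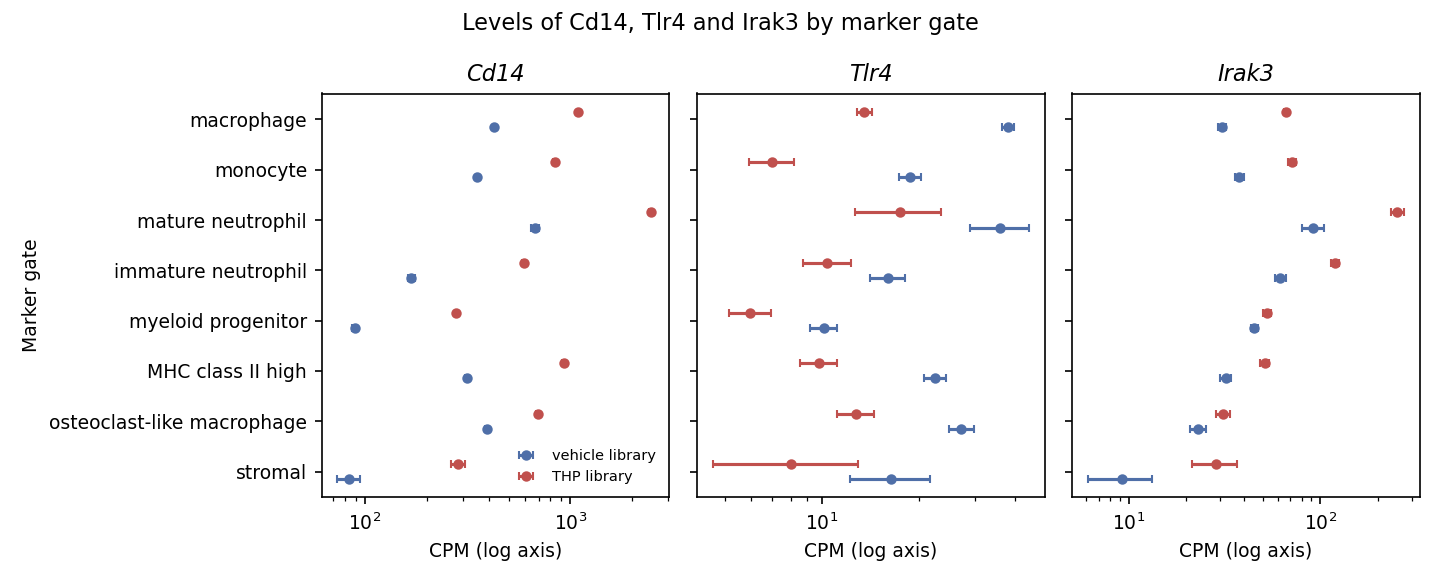
Levels of Cd14, Tlr4 and Irak3 in CPM (log axes, different in range) in the 8 marker gates of the vehicle and THP libraries, with exact Poisson 95% intervals. The mature neutrophil gate was highest for Cd14 and Irak3 in both libraries, at 2478 and 253 CPM with THP.

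In the other gates Cd14 followed an order that was similar but not equal in the libraries. With THP the macrophage gate came next at 1093 CPM, then the MHC class II gate at 927 CPM, the monocyte gate at 839 CPM, the osteoclast-like gate at 692 CPM and the immature neutrophil gate at 592 CPM. The stromal gate at 284 CPM (261 to 308) and the progenitor gate at 279 CPM (273 to 285) did not differ beyond counting error. These sums rest on a minority of high cells: the median cell had 30.2 CPM in the stromal gate, with 46.9% at 0 and a 90th percentile of 692 CPM, and 77.9 CPM in the progenitor gate. With vehicle the order after mature neutrophils was macrophage at 426 CPM, osteoclast-like at 393 CPM, monocyte at 353 CPM, MHC class II at 314 CPM, immature neutrophil at 168 CPM, progenitor at 88.9 CPM (86.0 to 91.8) and stromal at 83.3 CPM (73.3 to 94.2), the last pair overlapping. The osteoclast-like gate moved from the third place with vehicle to the fifth with THP, since its ratio was the lowest of the 8.

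In single cells the shift of Cd14 covered the whole distribution of the macrophage gate and not a few cells. The median macrophage cell had 975 CPM of Cd14 with THP and 301 CPM with vehicle, and the 10th percentile with THP, 362 CPM, lay above the vehicle median. Only 1.17% of THP macrophage cells had no UMI of Cd14, against 8.04% with vehicle. In the mature neutrophil gate the medians were 2705 and 505 CPM, with 6.30% and 36.4% of cells at 0. That gate is shallow, with medians of 2131 and 1885 UMIs per cell. As a background, 103 THP and 57 vehicle cells in the B cell and T or NK cell gates, lymphoid cells that should lack Cd14, had medians of 2720 and 3282 UMIs. Of these, 8.74% (4.07 to 15.9) and 7.02% (1.95 to 17.0) carried a UMI of Cd14, at 97.0 CPM (71.0 to 129) and 14.7 CPM (4.01 to 37.7). In CPM this background differed between the libraries in the same direction as the gates. Its part in the gate differences was not tested. The mature neutrophil shares of 93.7% and 63.6% at a lower depth were above that background in both libraries.

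**Figure D4:**
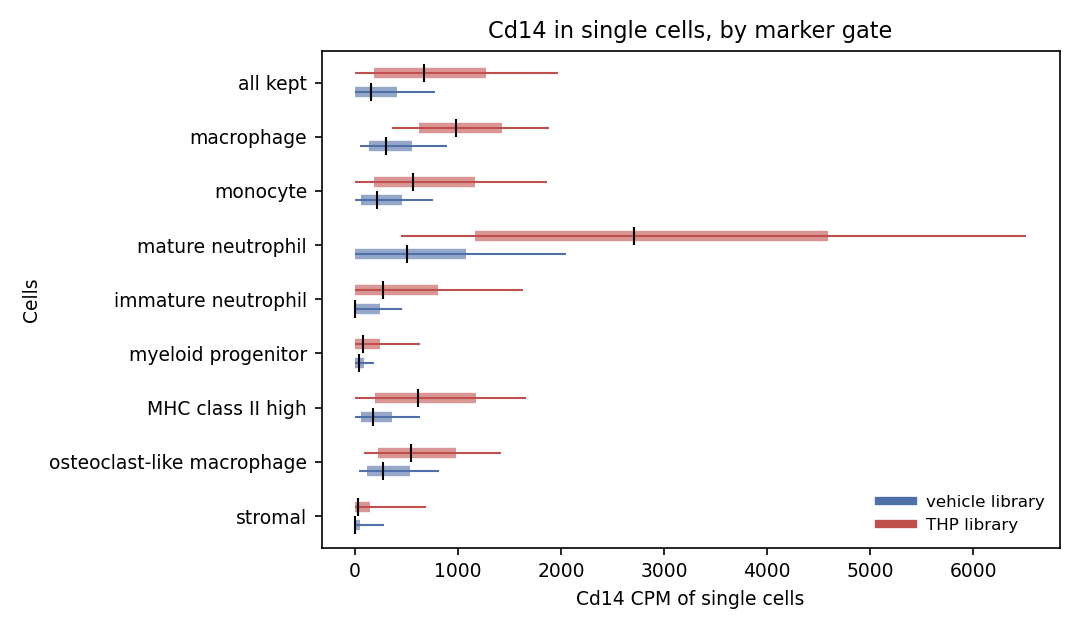
Cd14 CPM of single cells, for all kept cells and each marker gate, in the vehicle and THP libraries; thin lines run from the 10th to the 90th percentile, thick bars from the 25th to the 75th, and ticks mark medians. The median of the macrophage gate was 975 CPM with THP and 301 CPM with vehicle.

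Tlr4 was lowest relative to vehicle in the macrophage and monocyte gates. In the macrophage gate it stood at 13.6 CPM (12.8 to 14.3) with THP and 37.9 CPM (36.3 to 39.6) with vehicle, a ratio of -1.42, with a UMI in 27.2% and 57.7% of cells at medians of 21028 and 22506.5 UMIs. In the monocyte gate it was at 7.00 CPM (5.94 to 8.20) and 18.8 CPM (17.3 to 20.3), a ratio of -1.31. The difference was 2-fold or more in 5 gates, those 2 with the mature neutrophil gate at 17.4 against 35.9 CPM, the MHC class II gate at -1.13 and the osteoclast-like gate at -1.04. With TMM, only the macrophage and monocyte gates remained past 2-fold. The immature neutrophil gate had the ratio nearest 0, -0.58, and the stromal gate, with 16 and 50 UMIs, had overlapping intervals.

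The order of Tlr4 levels differed between the libraries. With vehicle, macrophages at 37.9 CPM and mature neutrophils at 35.9 CPM (29.0 to 44.1) led and overlapped, and progenitors were last at 10.1 CPM (9.16 to 11.1). With THP, mature neutrophils at 17.4 CPM (12.7 to 23.4), macrophages at 13.6 CPM and osteoclast-like cells at 12.7 CPM (11.1 to 14.5) overlapped at the top, and progenitors were last at 5.97 CPM (5.13 to 6.91). The lymphoid gates held 1 UMI of Tlr4 in each library, with upper limits of 11.7 and 20.5 CPM. The progenitor, monocyte, immature neutrophil and stromal levels lay below these limits in both libraries, as did the MHC class II level with THP. With this many lymphoid cells, those levels cannot be set apart from background.

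Ly96 was above 0 in 7 gates with intervals apart, from 0.23 in macrophages, at 45.2 CPM (43.9 to 46.6) against 38.5 CPM (36.9 to 40.2), to 0.86 in stromal cells. In mature neutrophils, where Ly96 was highest with vehicle at 49.6 CPM (41.4 to 59.0), it was 39.3 CPM (31.9 to 47.8) with THP, and the intervals overlapped. The upper limits of Ly96 in the lymphoid gates were 33.2 CPM with THP and 26.6 CPM with vehicle. The monocyte, immature neutrophil, progenitor, MHC class II and stromal levels lay below these limits in both libraries. With this many lymphoid cells, those levels cannot be set apart from background. In the macrophage gate there were 3.34 UMIs of Ly96 for each of Tlr4 with THP and 1.02 with vehicle. Macrophage cells thinned to 5000 UMIs that carried both Tlr4 and Ly96 made up 1.49% (1.11 to 1.94) with THP and 3.49% (2.74 to 4.36) with vehicle, while those with all 3 genes made up 1.41% (1.05 to 1.86) and 2.21% (1.63 to 2.93), intervals that overlap.

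Among the adaptors, Myd88 had ratios from 0.44 in macrophages to 0.70 in immature neutrophils in 7 gates. Of these, the stromal gate had overlapping intervals, 33.4 CPM (25.9 to 42.4) with THP and 22.7 CPM (17.7 to 28.7) with vehicle. The level of Myd88 in the osteoclast-like gate was equal within counting error, 34.5 CPM (31.8 to 37.4) with THP and 34.0 CPM (31.4 to 36.8) with vehicle. Myd88 was highest in mature neutrophils, 82.9 CPM (72.0 to 94.9) and 58.2 CPM (49.2 to 68.3). Tirap was also highest there, 44.0 CPM (36.2 to 53.0) and 63.7 CPM (54.3 to 74.2), and lowest in the osteoclast-like gate, 9.43 CPM and 12.98 CPM, with ratios between -0.52 and -0.25 in the 8 gates and intervals apart in 7. Ticam1 was clearest in macrophages, at 10.5 CPM (9.81 to 11.2) against 6.59 CPM (5.93 to 7.30), a ratio of 0.60, and its intervals overlapped in 4 gates. Ticam2 had overlapping intervals in 7 gates, and in mature neutrophils it was captured with 3 UMIs with THP and 10 with vehicle, 1.19 CPM (0.245 to 3.48) and 3.91 CPM (1.87 to 7.18), values too low for a fold change.

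Irak3 was higher with THP in each gate with intervals apart. In mature neutrophils it stood at 253 CPM (234 to 274) with THP and 91.8 CPM (80.4 to 104) with vehicle, a ratio of 1.46, and it was found in 50.9% and 20.3% of these shallow cells. In macrophages it was at 66.1 CPM (64.4 to 67.8) and 30.7 CPM (29.3 to 32.2), a ratio of 1.08, and in stromal cells, with 57 and 28 UMIs, the ratio was 1.53. These 3 gates passed 2-fold, and 5 did with TMM. The ratio was 0.21 in progenitors, at 52.6 CPM (50.0 to 55.2) and 45.4 CPM (43.3 to 47.5), which had the third highest level of the 8 gates with vehicle and the fifth with THP. The lymphoid gates held Irak3 at 10.5 CPM (3.42 to 24.6) and 7.36 CPM (0.892 to 26.6). Irak4 had ratios from -0.86 in immature neutrophils, at 12.8 CPM (10.9 to 14.8) against 23.9 CPM (21.5 to 26.5), to -0.21 in osteoclast-like cells, with intervals apart in 5 gates. Irak3 thus had 13.9 UMIs for each of Irak4 in THP mature neutrophils and 3.05 in vehicle ones, against 3.91 and 2.28 in progenitors.

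Within the macrophage gate, cells were ranked by their Cd14 CPM and divided in 4 equal parts in each library. From the lowest to the highest part, Tlr4 went from 16.7 CPM (14.8 to 18.7) to 11.9 CPM (10.5 to 13.4) with THP and from 48.7 CPM (44.7 to 53.0) to 30.5 CPM (27.7 to 33.4) with vehicle. Irak3 went the other way, from 56.8 CPM (53.4 to 60.4) to 75.1 CPM (71.6 to 78.8) with THP and from 25.3 CPM (22.4 to 28.5) to 35.3 CPM (32.3 to 38.4) with vehicle. The opposite signs of Cd14 and Tlr4 between the libraries were therefore also seen among cells of 1 library. With THP, Tlr4 was already at 11.8 CPM in the part below the highest. A fall was not particular to Tlr4. Irak4, Ticam2 and Myd88 also fell from the lowest to the highest part in both libraries, though with overlapping intervals. Tirap rose in both with overlapping intervals, and Ticam1 rose with THP and fell with vehicle. Cd14 alone did not place a cell: the vehicle part with 890 CPM of Cd14 had 30.5 CPM of Tlr4, and the THP part with 794 CPM of Cd14 had 14.6 CPM (13.2 to 16.2). Ly96 was between 44.6 and 45.7 CPM in the 4 THP parts and went from 43.4 CPM (39.6 to 47.5) to 35.6 CPM (32.6 to 38.8) in the vehicle parts. Median UMIs per cell were 17220 and 18454.5 in the lowest parts and 21161 and 23931 in the highest, and the share of this in the trends was not tested.

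**Figure D5:**
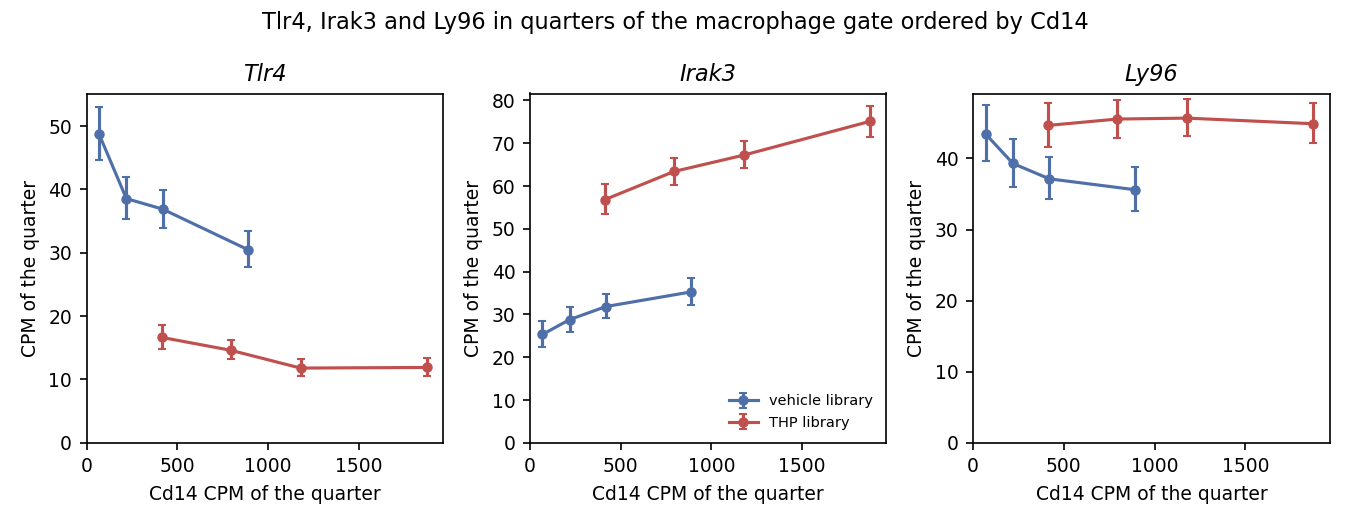
Tlr4, Irak3 and Ly96 (CPM, vertical axes from 0) against Cd14 CPM in 4 equal parts of the macrophage gate ranked by Cd14, for the vehicle and THP libraries, with exact Poisson 95% intervals. Tlr4 was at 48.7 CPM in the lowest and 30.5 CPM in the highest vehicle part, and at 16.7 and 11.9 CPM with THP.

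The genes whose levels most resembled those of Cd14, Tlr4 and Irak3 were sought over the 16 sums of a library and gate, by Pearson's r of log2(CPM + 1). The sums share libraries, and the values describe likeness only. For Cd14 the closest were Cxcl2, a neutrophil-attracting chemokine (r = 0.97), Lrrc25 (0.95), Marcksl1 (0.95), Clec4e (0.95), which encodes the receptor Mincle, and Irak2 (0.94), another kinase of the IRAK family. Their own ratios over all cells ran from 0.61 for Irak2 to 2.37 for Cxcl2. For Tlr4 they were Myo9b (0.95), Scyl2 (0.94), Nek9 (0.94), Iqgap1 (0.93) and Xiap (0.93), with ratios from -0.69 for Scyl2 to -0.36 for Iqgap1. For Irak3 they were Ebi3 (0.96), a subunit of interleukin-27 and interleukin-35, Samsn1 (0.96), Nadk (0.94), Ccdc88b (0.93) and Lst1 (0.93), with ratios from 0.20 for Ccdc88b to 0.74 for Samsn1.

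The wider pathway was read from a list of 64 genes by role, of which 51 reached 10 CPM. The list was chosen with earlier results of these data known. The shares of all genes given beside its counts are therefore descriptive and no test of the list. By the 2-fold rule 6 were higher and 1 lower, where 0.911% of all 8012 genes were higher and 2.97% lower. On the list, 20 had ratios above 0 and 31 below, with a median of -0.17 beside -0.18 for all 8012 genes. With TMM, 7 were higher, none was lower and 32 were above 0, where 138 of 7957 genes were higher and 69 lower. Of the 6 that were higher, 4 were among the 13 inhibitors at 10 CPM: Traf1 (44.9 CPM with THP and 8.56 CPM with vehicle, a ratio of 2.26), Nfkbia (337 and 115 CPM, 1.55), which encodes the NF-kB inhibitor IkB-alpha, Tnip1 (117 and 41.7 CPM, 1.47) and Tnfaip3 (18.4 and 7.35 CPM, 1.22), which encodes the ubiquitin-editing enzyme A20. Other inhibitors had ratios below 0, such as Cyld (-0.81), a deubiquitinase, Rnf216 (-0.76) and Pik3ap1 (-0.90), so the 13 had a median of -0.08.

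Outside the inhibitors, Tlr2, the receptor for bacterial lipoproteins, was at 90.9 CPM (89.7 to 92.2) with THP and 31.0 CPM (30.2 to 31.7) with vehicle, a ratio of 1.52 that equals that of Cd14. Cd180, which encodes a receptor related to TLR4, was at 28.1 CPM (27.4 to 28.8) and 46.1 CPM (45.2 to 47.1), a ratio of -0.69. Of the 19 kinases and ligases, 4 were above 0 and 15 below, or 10 and 9 with TMM. Their median ratio was close to that of all genes tested, -0.22 beside -0.18, or 0.05 beside 0.11 with TMM. Ikbke, a kinase of the TRIF arm, was at 114 CPM (113 to 115) and 50.5 CPM (49.5 to 51.4), a ratio of 1.16, and Peli2, a ubiquitin ligase that acts on IRAK proteins, at 10.7 CPM (10.3 to 11.2) and 24.6 CPM (23.9 to 25.3), a ratio of -1.13. Peli2 was no longer 2-fold lower with TMM, RLE or the adjustment for length. The 5 transcription factors of the pathway, Rela, Nfkb1, Irf3, Irf5 and Irf7, had ratios from 0.03 to 0.56, and after the adjustment for length 3 of the 5 were above 0. None of the 7 genes for folding and traffic of the receptor reached 2-fold, and their median ratio was -0.17.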

How the data were processed

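The single-cell data of 2 libraries were used as deposited: raw UMI counts per gene and barcode, per the file headers made with matrix software version 3.1.0. Cell Ranger, STAR, bcl2fastq and the build mm10 are named in the submitters' processing notes. Barcodes with at least 500 genes, 1000 UMIs and at most 10% mitochondrial UMIs were kept. No doublet caller was run, so doublets remain, and the 5% of cells with most UMIs were left out as an alternative. Gates used the mean over each marker list of ln(1 + counts per 10000). The limit of 0.5 was set after the counts were seen. Length was the longest GENCODE M21 (GRCm38) transcript, and the drift was a running median over 501 genes. Promoter windows came from RefSeq for 5 of the 9 members. Factors for TMM and RLE came from edgeR 4.0.16 in R 4.3.3; other steps used Python 3.11.15, numpy 2.4.6 and scipy 1.17.1. Named genes were the 9 members, the 5 genes most like Cd14, Tlr4 and Irak3, and, of the pathway list, those past 2-fold and the 5 highest and 5 lowest; the 5 transcription factors were named as a whole role, after their values were seen. The members and lists were chosen with earlier results of these data known.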

Additional observations from a re-analysis of the deposited data

Results flagged for a closer look

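The cell filter left out 1070 THP and 606 vehicle barcodes, which no comparison above used. In them, 4 members stood above the vehicle level with intervals apart. The share of all genes with intervals apart in these barcodes was not computed, so the count has no background to compare with. Cd14 was at 1315 CPM (1269 to 1363) in the THP barcodes and 403 CPM (371 to 437) in the vehicle barcodes. Irak3 was at 86.4 CPM (74.8 to 99.2) against 34.3 CPM (25.4 to 45.3). Myd88 was at 44.3 CPM (36.1 to 53.7) against 24.5 CPM (17.0 to 34.0), and Ly96 at 35.6 CPM (28.3 to 44.2) against 15.4 CPM (9.64 to 23.3). Tlr4, at 19.1 CPM (13.9 to 25.6) and 29.4 CPM (21.2 to 39.7), had overlapping intervals with 44 and 42 UMIs.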

How the results depend on the processing

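The ratios of the 9 members were recomputed under 9 alternatives: TMM, RLE, all deposited barcodes, a stricter cell filter, leaving out the 5% of cells with most UMIs, equal weight per cell, transcript length, the same mix of gated cells, and a pseudocount of 0.1 CPM. Of these 81 values, 79 kept the sign; the exceptions were Ticam2 with TMM and RLE. Cd14 ran from 1.27 to 1.81 and was past 2-fold in all 9, Tlr4 from -1.20 to -0.80 and past 2-fold in 6, and Irak3 from 0.75 to 1.06. Ly96 ran from 0.11 to 0.76, Myd88 from 0.38 to 0.79, Ticam1 from 0.39 to 0.71, Ticam2 from -0.26 to 0.02, Tirap from -0.54 to -0.12 and Irak4 from -0.74 to -0.32. The number of higher members moved from 1 to 2 with TMM, RLE and a 1.5-fold limit, and the number of lower members from 1 to 0 with TMM, RLE and equal weight per cell, and to 2 at 1.5-fold. The scaling moved the split over all genes from 73 higher and 238 lower to 138 and 69. Gates with Tlr4 2-fold lower numbered 5, and 2 with TMM or RLE; gates with Irak3 2-fold higher numbered 3, 5 with TMM or RLE and 6 at 1.5-fold. Restricting gates to cells whose own score was at least 2 times the next, an alternative added after seeing the data as were TMM, RLE and 1.5-fold within gates, left Tlr4 2-fold lower in 3 gates and turned Myd88 in 1 gate to -0.08. The causes were not tested. Leaving out replicates was not possible with 1 library per group. No paired analysis was possible because each group has 1 library and no result comes from a test. Few UMIs limit Ticam1 and Ticam2, the mature neutrophil gate is shallow, and the stromal gate is small.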
